A study of Gasterosteus aculeatus with 227 samples.

Results

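Neuropeptides and pituitary hormones are small secreted proteins with which neurons and endocrine cells signal to each other and to distant organs. The genes described here are those whose row name in the gene tables begins with the symbol of such a peptide, hormone or processing protein and holds nothing else but copy numbers or letters. Of the 25994 genes listed, 40 matched. Of these, 36 encode 7 pituitary hormone chains, 7 hypothalamic releasing or reproductive peptides, 1 nonapeptide hormone, 5 appetite and arousal peptides, 3 opioid or tachykinin precursors, 5 somatostatin and other gut-brain peptides, and 8 granins, convertases or carboxypeptidases. The other 4 rows, cpeb1b, cpeb2, cpeb3 and cpeb4b, matched by the letters of their symbol only. They encode cytoplasmic polyadenylation element binding proteins, which bind mRNA, and are given apart. A further 7 genes of these families stand in the tables under another name (fsh-beta) or under a gene number that the RefSeq gene table pairs with the symbols avp, vip, grp, agrp, crha and scg5. They are given as related genes and are in no count of the 40.

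Hypothalamic neurons make releasing peptides, and in teleost fish their axons enter the pituitary, where endocrine cells make growth hormone, prolactin, somatolactin and the glycoprotein hormones. Each glycoprotein hormone pairs a common alpha subunit with its own beta subunit, which makes it luteinizing, follicle-stimulating or thyroid-stimulating hormone. Most of these molecules are cut from larger precursors by convertases and a carboxypeptidase inside dense-core granules that also hold granins.

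The 227 libraries came from 80 wild threespine stickleback (Gasterosteus aculeatus), females and males of 1 natural population caught in the breeding season, without treatment. No strain, allele or age is given by the labels, and apart from the fish tags females and males differ in no labelled factor but sex. The fish tags that carry a letter are all of females. Brain, gills and liver were sampled, and all 3 tissues were measured in 69 fish. Libraries of at least 1000000 counts were used, which left 38 female and 39 male brains, 36 and 36 gills, and 35 female and 32 male livers. The labels do not say whether the pituitary was taken with the brain.

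The libraries are QuantSeq libraries, which read the 3' end of each polyadenylated transcript, so levels of genes can be set side by side without a correction for length. Levels are given as CPM, the count scaled to 1000000 counted reads. Median totals ran from 9775138 counts in female livers to 12608234 in female brains, and a detection limit of 3 counts in a library of median size came to 0.238 to 0.307 CPM. The sum of the 7 neuron markers found in the tables was 4218 to 6020 CPM in brains against 27.1 to 285 CPM in gills. The sum of 9 gill markers was 743 to 3233 CPM in gills and 125 to 339 CPM in brains. The sum of 6 liver markers was 7678 to 185700 CPM in livers and 12.6 to 939.6 CPM in gills, but in brains it was 722 to 10310 CPM, which overlaps the lowest livers. Most of it in brain was tfa, a transferrin gene, and apoa2, an apolipoprotein gene, with medians of 2921 and 1819 CPM in females and 2445 and 1651 CPM in males. In bulk tissue, fewer cells of a type and less RNA per cell cannot be told apart.

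In brain 4 pituitary hormone genes had the highest medians of the 40 genes. The median over all brains was 2097 CPM for gh1 (growth hormone), 1154 CPM for cga (the common alpha subunit), 774 CPM for lhb (luteinizing hormone beta) and 666 CPM for smtla (somatolactin, a teleost hormone of the growth hormone family). The carboxypeptidase cpe followed with 559 CPM, then the mRNA-binding gene cpeb4b with 385.5 CPM, prl (prolactin) with 372 CPM, oxt (the oxytocin-family precursor) with 343 CPM, scg2b (secretogranin) with 336 CPM and then adcyap1b. The gene adcyap1b and its copy adcyap1a encode PACAP, a peptide that raises cyclic AMP in its target cells. At the other end, kiss2 (kisspeptin, which acts on gonadotropin-releasing hormone neurons) had a median of 0.170 CPM and prl2, a second prolactin gene, 0.198 CPM. Both lie under the detection limit and were the only members that passed the expression filter in no tissue.

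**Figure D1:**
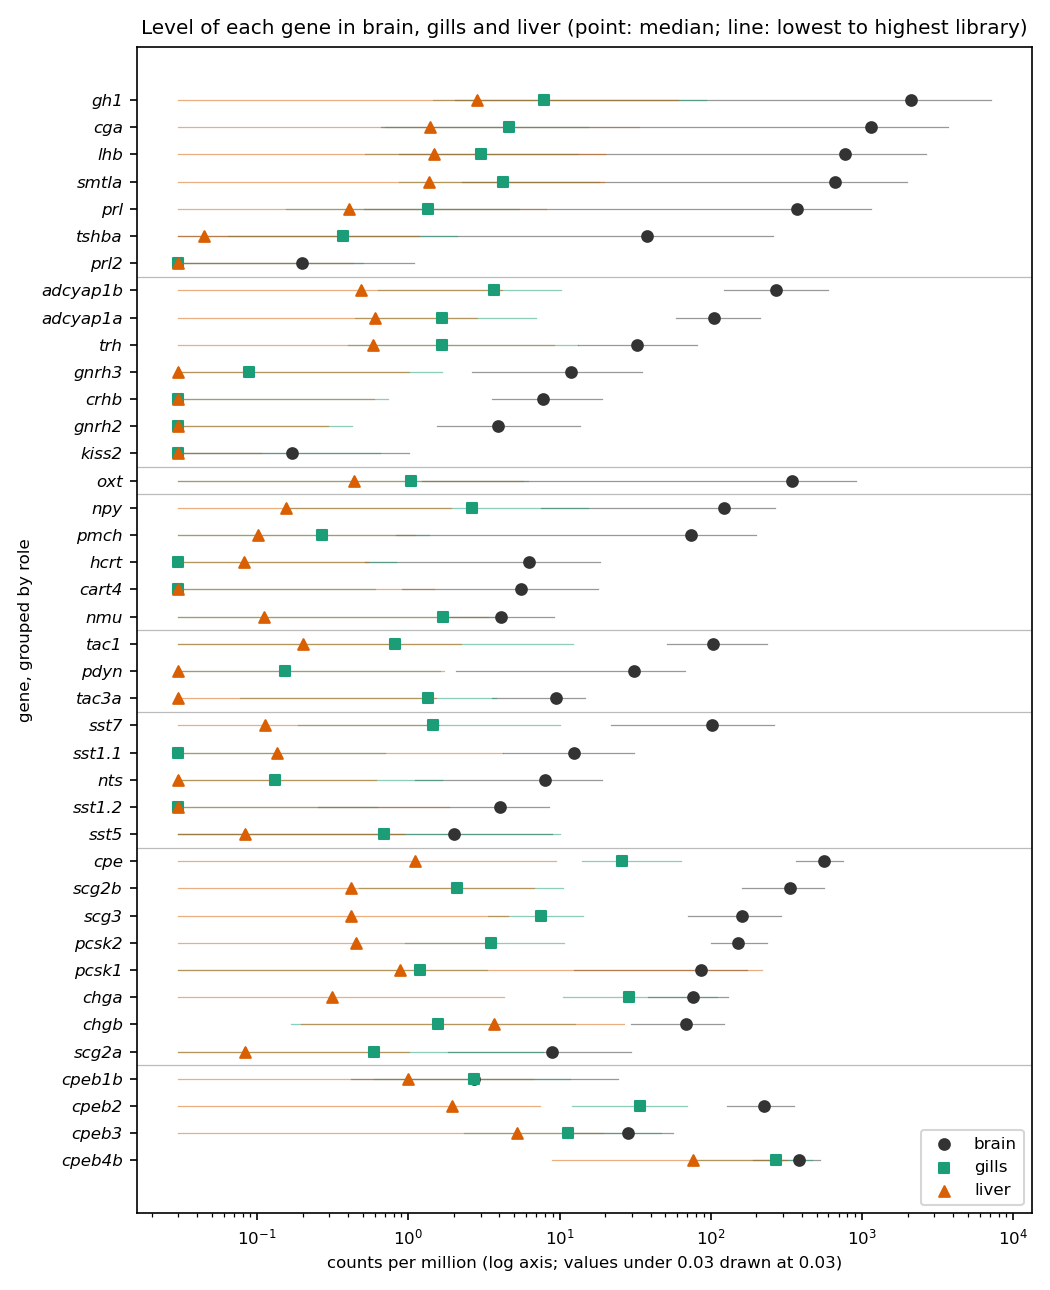
CPM of each of the 40 genes (vertical axis, grouped by role) in brain, gills and liver, on a log axis. Points are medians over libraries and lines run from the lowest to the highest library. Brain medians lie to the right of gill and liver medians for nearly all peptide genes, with chga and nmu closest to their gill level.

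Pituitary hormone levels fell into 2 separate ranges over the brains. The transcription factor pou1f1, which is required by growth hormone, prolactin and thyrotropin cells, was used to set them apart, because it is no member. In 16 brains, 9 of females and 7 of males, pou1f1 was under 0.1 times its median and reached 1.14 CPM at most. In the other 61 brains it ran from 4.94 to 29.8 CPM. This split was chosen after the values were seen.

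In the 16 brains low in pou1f1, gh1 ran from 2.04 to 30.5 CPM with a median of 9.73, while in the other 61 brains it ran from 654 to 7166 CPM with a median of 2688. The median of cga was 5.47 CPM against 1535 CPM. The same held for lhb (3.61 against 985 CPM), smtla (5.87 against 776 CPM), prl (2.28 against 403 CPM), tshba, the thyrotropin beta subunit (0.138 against 47.3 CPM), and the related gene fsh-beta, the follitropin beta subunit (2.93 against 416 CPM). The ratio of these medians lay between 132 for smtla and 342 for tshba. The median of tshba in the 16 brains lies under the detection limit, so the size of its ratio depends on few counts. The ranges did not overlap for gh1, cga, smtla, prl, tshba or fsh-beta. The share of all genes whose ranges lie apart in this way was not computed. Growth hormone, prolactin and thyrotropin cells require pou1f1, so the separation of gh1, prl and tshba is not independent of the split. They overlapped for lhb, where the brain of male replicate 23, 1 of the 61, held 13.2 CPM and the 16 low brains reached 25.8 CPM. That brain also held the lowest fsh-beta of the 61, 9.84 CPM, against at most 9.53 CPM in the 16.

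The summed level of the 7 hormone genes was 6.47 to 191 CPM in the 16 brains and 1527 to 15390 CPM in the other 61. The other genes compared, oxt, avp, pmch, npy, hcrt, nts, crhb and scg2b, did not follow this split. The ratio of their medians, the 61 brains over the 16, lay between 0.855 for npy and 1.27 for pmch. Of the hypothalamic releasing peptides only crhb was among them, and of the granins only scg2b. The other granins, the convertases and cpe were not compared, so whether they follow the split was not tested. The median of oxt was 343 CPM in both sets of brains, that of scg2b was 332 and 340 CPM, and that of npy was 135 and 116 CPM. For prl2 the medians were 0.223 CPM in the 16 brains and 0.188 CPM in the 61. Both lie under the detection limit, so whether prl2 follows the split cannot be told.

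**Figure D2:**
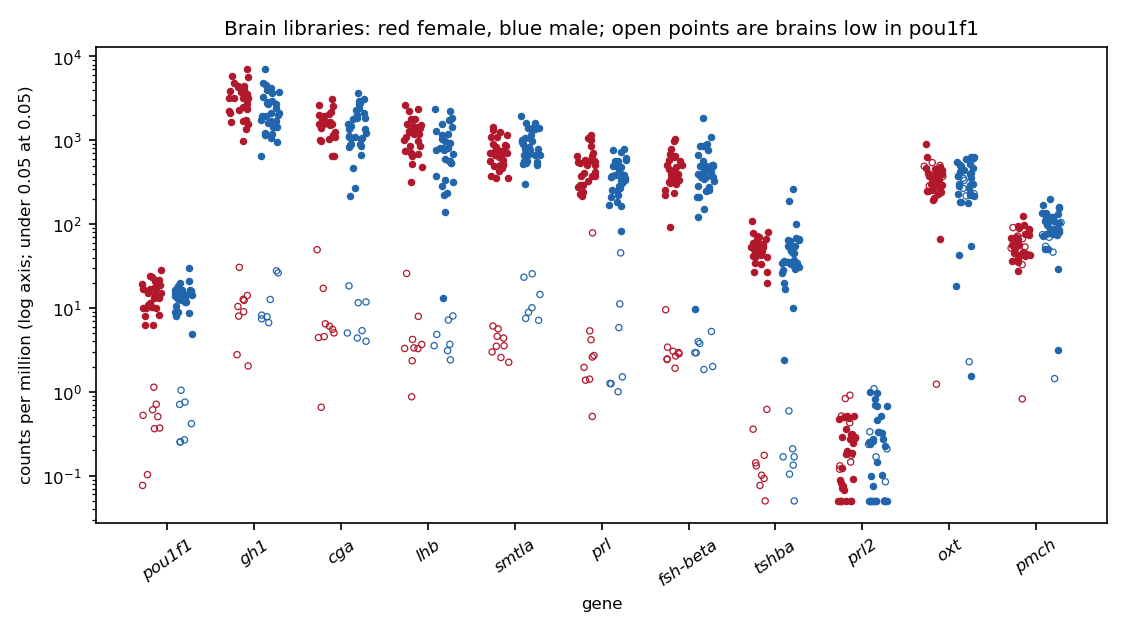
CPM in each brain library (log axis, values under 0.05 drawn at 0.05) of pou1f1, the pituitary hormones, oxt and pmch; red points are females, blue points males, and open points the 16 brains low in pou1f1. Open points lie about 2 orders of magnitude under the others for gh1, cga, lhb, smtla, prl, fsh-beta and tshba, but not for oxt or pmch. The medians of prl2 lie under the detection limit in both sets of brains.

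No pituitary hormone gene passed the test between the sexes over all brains, where this spread is part of the error. For gh1 the lowest, median and highest levels were 2.04, 2437 and 7017 CPM in 38 females and 6.69, 1746 and 7166 CPM in 39 males. The log2 fold change of females over males was 0.24 (SE 0.482, adjusted p = 0.930). For cga the levels were 0.655, 1333 and 3138 CPM in females and 4.01, 1089 and 3686 CPM in males (log2 fold change -0.09, SE 0.469, adjusted p = 0.978). These ranges overlap almost wholly.

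For lhb the levels were 0.873, 997 and 2662 CPM in females and 2.41, 597 and 2369 CPM in males (log2 fold change 0.31, SE 0.490, adjusted p = 0.898). For smtla they were 2.26, 581 and 1434 CPM in females and 7.13, 792 and 1971 CPM in males (log2 fold change -0.50, SE 0.431, adjusted p = 0.744). For prl they were 0.509, 392 and 1147 CPM in females and 1.00, 340 and 778 CPM in males (log2 fold change 0.31, SE 0.435, adjusted p = 0.876). Medians were higher in females for lhb and prl and higher in males for smtla, within ranges that overlap.

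For tshba, levels ran from 0 through a median of 45.4 to 109 CPM in females and from 0 through 34.4 to 259.5 CPM in males (log2 fold change -0.14, SE 0.436, adjusted p = 0.959). The related fsh-beta had medians of 338 CPM in females and 365 CPM in males (log2 fold change -0.24, SE 0.456, adjusted p = 0.924). The sign for cga changed when the low brains were left out, and with pituitary factors (the mean log2 CPM of pou1f1, tbx19, lhx3 and lhx4) as a covariate it changed for cga, tshba and fsh-beta. Without the 16 brains low in pou1f1, smtla had a log2 fold change of -0.39 (SE 0.152, adjusted p = 0.127).

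Beta subunits were also compared per brain as a ratio to cga, the subunit with which they pair. The log2 ratio of lhb to cga ran from -1.16 to 0.34 in females with a median of -0.44, and from -4.33 to -0.00058 in males with a median of -0.77. Females had a mean of -0.46 ± 0.395 (SD, n = 38). Males had a mean of -0.93 ± 0.708 (SD, n = 39). The means differ by 0.47 (two-sided permutation test, p = 0.00016, adjusted p = 0.00048 over 3 subunits). The lowest male value belongs to the brain of male replicate 23, with 13.2 CPM of lhb and 268 CPM of cga, and the next male lay at -1.90. Without that brain the difference was 0.38 (permutation p = 0.00032), and without the 16 low brains it was 0.55 (permutation p = 6e-05). The corresponding difference was 0.01 for fsh-beta (permutation p = 0.963) and 0.16 for tshba (permutation p = 0.468).

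Among the 16 brains low in pou1f1, smtla separated the sexes. It ran from 2.26 to 6.10 CPM in the 9 females with a median of 3.55, and from 7.13 to 25.6 CPM in the 7 males with a median of 10.1. The ranges do not overlap. On the log2 CPM scale the females averaged 1.97 ± 0.471 (SD, n = 9) and the males 3.64 ± 0.749 (SD, n = 7). The two-sided exact permutation p was 0.000175, the smallest these numbers allow. After adjustment over 8 hormone genes, p was 0.00140 for smtla and 0.985 for each of the other 7 genes. In the other brains the medians of smtla were 703 CPM in females and 872 CPM in males, so this separation is one of low levels. The share of all genes that separate the sexes in these 16 brains was not computed. This comparison was chosen after the values were seen.

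Because the tissues came from the same fish, hormone levels in brain were also set against levels of 2 genes in liver. The gonadotropin subunits cga, lhb and fsh-beta were compared with vtg3, a vitellogenin gene for an egg yolk precursor, within each sex. Among the 61 brains, r ran from 0.13 to 0.17 and rho from 0.21 to 0.36 in 24 females, and r from -0.02 to 0.14 and rho from -0.11 to 0.03 in 26 males. No permutation p was under 0.05 in the 12 relations computed, which count each sex also over all its brains; the smallest adjusted p was 0.914 for r and 0.974 for rho. For gh1 and liver igf1, the growth factor that growth hormone raises in liver, 24 females of the 61 brains gave r = 0.44 (permutation p = 0.0301, adjusted p = 0.120) and rho = 0.52 (permutation p = 0.0102, adjusted p = 0.0407 over 4 relations, of which 2 took all brains of a sex). The call was lost when the 2 samples farthest from the median were left out (r = 0.40 and rho = 0.45, and 0 of the 4 relations passed by rank after adjustment). In 26 males r was -0.0051 (permutation p = 0.980) and rho 0.05 (permutation p = 0.826). The difference between the sexes was not tested.

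Several hypothalamic and other neuropeptides were expressed at intermediate levels. Medians over the 77 brains were 123 CPM for npy (neuropeptide Y, which raises feeding), 104 CPM each for tac1 (the substance P precursor) and adcyap1a, 103 CPM for sst7 (a somatostatin-family gene) and 74.2 CPM for pmch (melanin-concentrating hormone, which in teleosts pales the skin and acts on feeding). They were 32.7 CPM for trh (thyrotropin-releasing hormone), 31.3 CPM for pdyn (prodynorphin, an opioid precursor) and 11.9 CPM for gnrh3 (a gonadotropin-releasing hormone). Below 10 CPM lay tac3a (neurokinin B), scg2a, nts (neurotensin), crhb (corticotropin-releasing hormone), hcrt (orexin), cart4, nmu, sst1.2, gnrh2 and sst5.

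The coefficient of variation over brains was 14.3% for cpe and 18.5% for pcsk2, a prohormone convertase, against 48.4% for oxt, 49.3% for pmch and 52.9% for npy. A few brains hold the low end. In the brains of female replicate 10, male replicate 3 and male replicate 13, oxt stood at 1.24, 2.28 and 1.56 CPM, where its median was 343 CPM. The same 3 brains had 0.824, 1.44 and 3.12 CPM of pmch, and 1.34, 0.508 and 0.550 CPM of the related vasopressin-family gene avp, whose median was 69.5 CPM. Their trh (50.3, 32.2 and 27.8 CPM) and tac1 (105.5, 91.3 and 68.8 CPM) lay in the range of the other brains. The related gene agrp was also under 0.1 times its median in all 3. So were npy in female replicate 10 and male replicate 3, hcrt in female replicate 10 and male replicate 13, and pdyn in female replicate 10. Female replicate 10 and male replicate 3 are among the brains low in pou1f1, and male replicate 13 is not.

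The brain of male replicate 11 had 18.4 CPM of oxt with 111 CPM of pmch. The totals of these 4 libraries, 9714236 to 12259031 counts, lay in the range of the other brains. Comparisons of the sexes and of the tissues were therefore also run without these 4 brains, a choice made after the values were seen.

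Over the 77 brains, 24 members outside the pituitary hormones with a median of at least 5 CPM gave 276 pairs. Of these pairs, 124 had an adjusted permutation p of rho under 0.05, 112 of them positive and 12 negative. The median rho over all pairs was 0.22. Pairs of other genes were not computed and both sexes were pooled, so these counts are no result about the members. The strongest rank correlation was between pcsk1, a prohormone convertase, and scg2b (r = 0.86, rho = 0.85, adjusted p = 6.57e-05 and 7.46e-05). Without the 2 brains farthest from the median of pcsk1, r was 0.86, and in the 73 brains not low in oxt r was 0.86 and rho 0.83. The next was between npy and sst7 (r = 0.82, rho = 0.84, adjusted p = 6.57e-05 and 7.46e-05, and r = 0.79 without 2 brains). In those 73 brains its r was 0.79 and its rho 0.81. These permutation p-values are the smallest that 100000 resamples can give, adjusted over the pairs. Genes of 1 library share its dissection and depth.

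Sex differences in brain were few. Of the 38 members tested in brain, 3 had an adjusted p under 0.05, which is 7.89% of them, and of all 18392 genes tested 7.22% did. In females 1 was higher, against 4.64% of all genes, and in males 2 were higher, against 2.58%. Without the 16 brains low in pou1f1, 4 of 38 were called (nts, chga, pmch and crhb), against 7.57% of all genes. Without the 4 brains low in oxt, 4 were called (nts, pmch, scg2b and crhb), against 7.12%, and with the pituitary factors as a covariate the same 3 as over all brains, against 7.13%. The median log2 fold change over the members was 0.0046, against -0.03 over all genes.

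The gene nts, which encodes neurotensin, a peptide of the gut and brain, was higher in females. Its lowest, median and highest levels were 5.04, 10.6 and 19.0 CPM in 38 females and 1.101, 5.71 and 13.8 CPM in 39 males. The ranges overlap, but 37 of 38 females lay above the male median and 3 of 39 males above the female median. The log2 fold change was 0.74 (SE 0.130, adjusted p = 3.55e-06). It is the only member that the RefSeq gene table places on the X chromosome, of which females carry an extra copy; 38 members had a chromosome in that table and none lay on the Y.

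The gene pmch was lower in females. Its levels were 0.824, 56.9 and 125 CPM in females and 1.44, 89.1 and 200.3 CPM in males. Of 39 males, 32 lay above the female median, and 5 of 38 females lay above the male median. The log2 fold change was -0.66 (SE 0.190, adjusted p = 0.0123), and -0.69 (SE 0.122, adjusted p = 4.39e-06) without the 4 brains low in oxt. With the replicate number as a block the adjusted p was 0.125.

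The gene scg2b, a granin of dense-core granules from which secretoneurin is cut, was also lower in females. Its levels were 160.5, 313 and 477 CPM in females and 176, 366 and 561 CPM in males, a log2 fold change of -0.22 (SE 0.070, adjusted p = 0.0309). Of 39 males, 30 lay above the female median. The adjusted p was 0.0657 without the 16 brains low in pou1f1 and 0.0836 with the replicate block.

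Close to the threshold lay crhb, which starts the stress axis. Its levels were 3.65, 6.84 and 15.7 CPM in females and 3.58, 8.75 and 19.1 CPM in males (log2 fold change -0.36, SE 0.122, adjusted p = 0.0611). Its adjusted p was 0.0250 without the 4 brains low in oxt and 0.0294 without the 16 brains low in pou1f1. The granin chga, with medians of 81.1 CPM for females and 73.5 CPM for males, had a log2 fold change of 0.14 (adjusted p = 0.354), and of 0.24 (adjusted p = 0.0237) without those 16 brains.

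The other abundant brain members did not pass the test. The levels of oxt were 1.24, 365 and 907 CPM in females and 1.56, 303 and 637.5 CPM in males (log2 fold change 0.15, SE 0.247, adjusted p = 0.905). Without the 4 brains low in oxt its log2 fold change was 0.07 (SE 0.152, adjusted p = 0.921). Those of cpe, the carboxypeptidase that trims cut peptides, were 367, 555 and 696 CPM in females and 406, 573.5 and 751 CPM in males (log2 fold change -0.07, SE 0.056, adjusted p = 0.686). For adcyap1b they were 123, 273 and 593 CPM and 187, 269.7 and 551 CPM (log2 fold change -0.05, SE 0.090, adjusted p = 0.924). For npy the medians were 123 CPM in both sexes (log2 fold change 0.12, SE 0.239, adjusted p = 0.930), and the log2 fold change was 0.06 without those 4 brains (SE 0.219, adjusted p = 0.964).

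Convertase and releasing peptide levels overlapped between the sexes in brain as well. For pcsk1 they were 12.4, 80.5 and 140.2 CPM in females and 14.8, 91.8 and 173 CPM in males (log2 fold change -0.19, SE 0.114, adjusted p = 0.518). For the granin chgb they were 29.8, 70.01 and 96.8 CPM and 29.9, 68.2 and 121 CPM (-0.09, SE 0.093, adjusted p = 0.802). For gnrh3 they were 5.79, 12.8 and 25.8 CPM and 2.62, 11.1 and 34.9 CPM (0.12, SE 0.152, adjusted p = 0.861), with a log2 fold change of 0.06 (adjusted p = 0.944) without the 4 brains low in oxt.

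The peptide precursors adcyap1a, tac1 and sst1.1, which recur in the comparison of tissues, did not pass the test in brain. The levels of adcyap1a ran from 59.2 through 97.9 to 157 CPM in females and from 63.5 through 108 to 212.3 CPM in males (log2 fold change -0.18, SE 0.082, adjusted p = 0.300). Those of tac1 ran from 50.99 through 107 to 190.3 CPM and from 54.2 through 98.6 to 235.5 CPM (adjusted p = 1.0). Those of sst1.1 ran from 4.22 through 12.1 to 20.4 CPM and from 4.40 through 12.9 to 30.9 CPM (-0.24, SE 0.130, adjusted p = 0.446).

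Of the mRNA-binding genes, cpeb4b was the most abundant, with 191, 419 and 529 CPM in females and 221.8, 374.5 and 530 CPM in males (log2 fold change 0.09, SE 0.064, adjusted p = 0.646). No cpeb gene passed the test in brain.

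**Figure D3:**
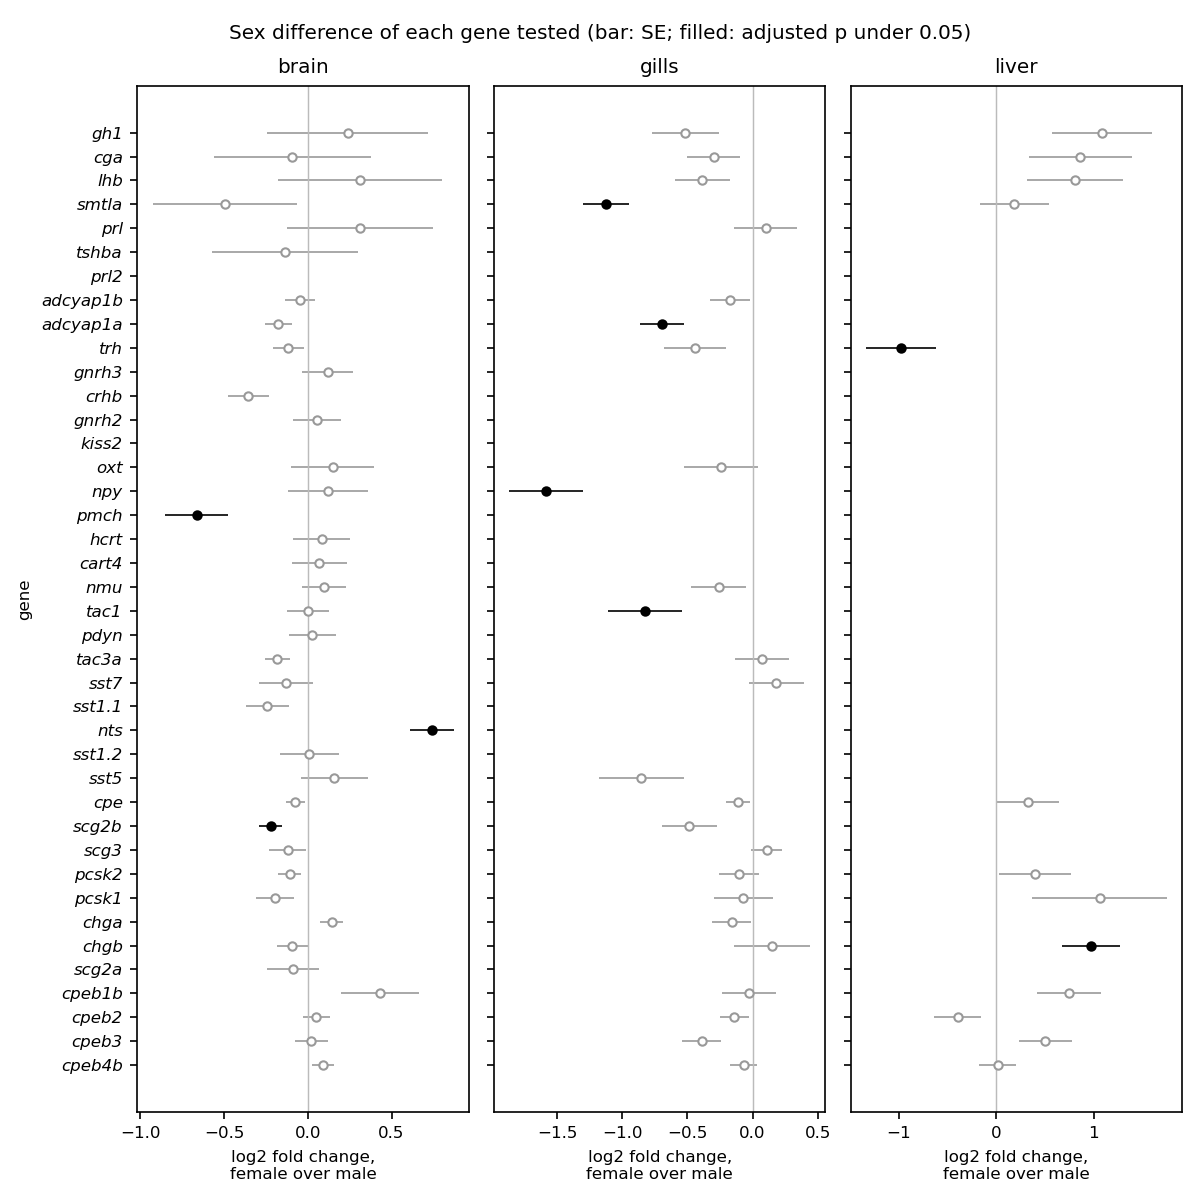
Log2 fold change of females over males (horizontal axes) of each member tested in brain, gills and liver, with its SE as a bar; filled points have an adjusted p under 0.05. Filled points are nts, pmch and scg2b in brain, smtla, adcyap1a, npy and tac1 in gills, and chgb and trh in liver, and the bars of the pituitary hormones are the widest in brain.

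The related gene vip, for vasoactive intestinal peptide, was higher in females and is placed on chromosome 6. It stood at 5.25, 15.4 and 24.3 CPM in females against 2.24, 8.96 and 19.9 CPM in males (log2 fold change 0.56, SE 0.125, adjusted p = 0.000359). Of 38 females, 35 lay above the male median. Of 42 peptide and hormone receptor genes tested in brain, 2 were higher in females and 1 in males. Of all genes 4.64% were higher in females and 2.58% in males. Both of the female-higher receptors, avpr1aa (a vasopressin receptor, log2 fold change 1.04) and gnrhr4 (a gonadotropin-releasing hormone receptor, 0.89), are on the X chromosome. The male-higher receptor was the somatostatin receptor sstr1b (log2 fold change -0.33, adjusted p = 0.000531). The median over the receptors was -0.04, against -0.03 over all genes.

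Of 18 further genes of prohormone processing and granules tested in brain, furinb and the X-linked granule release gene cadps2 were higher in females (log2 fold changes 1.16 and 0.99) and ctsla, a cathepsin, was higher in males (-0.29). The shares of all genes were 4.64% and 2.58%. None of the 7 neuron markers or the 3 pituitary factors tested passed the test in brain. Of 3 glia markers, mbpa, a myelin gene, was higher in females (log2 fold change 0.32, adjusted p = 0.0135), and the part of glia in the results on brain was not tested.

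**Figure D4:**
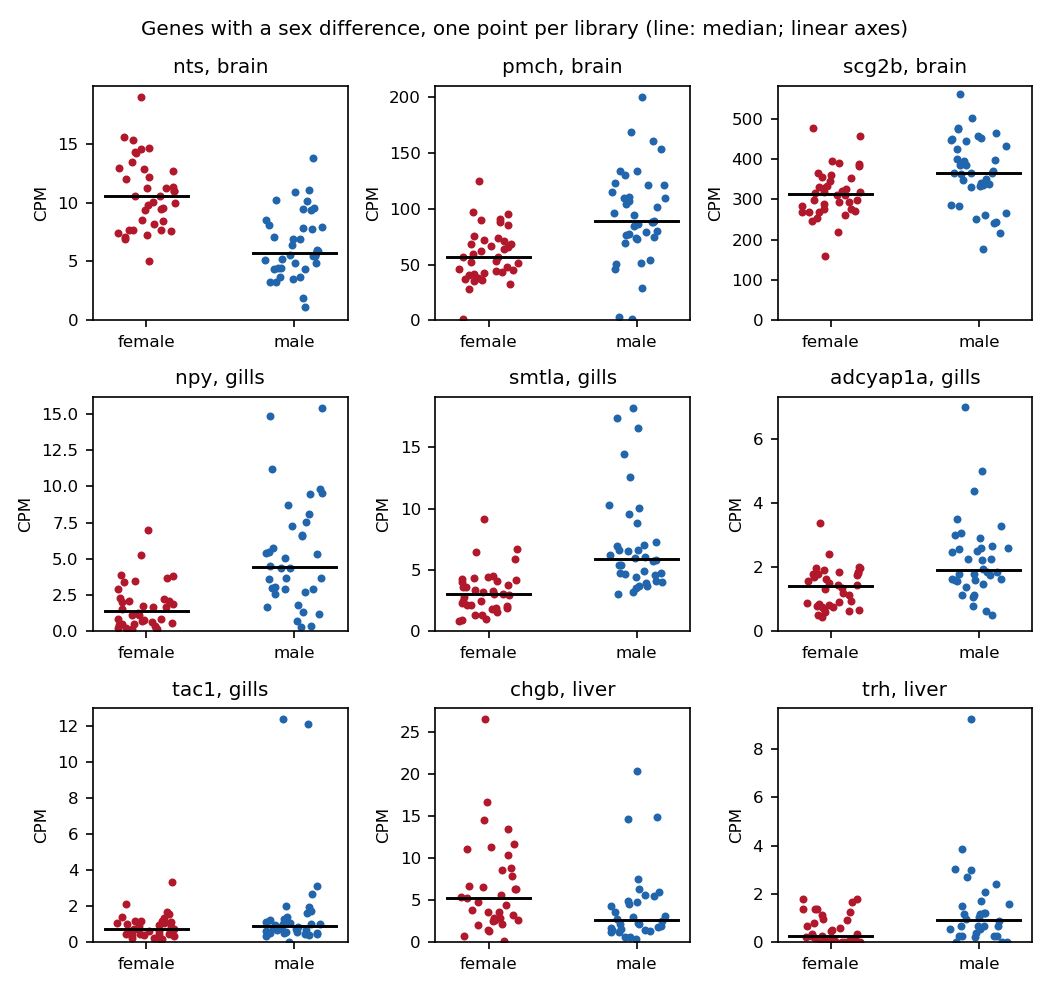
CPM of the 9 member and tissue combinations with an adjusted p under 0.05, 1 point per library, with females in red and males in blue and the median as a line, on linear axes that start at 0. The sexes overlap in every panel, and the gill levels of tac1 hold 2 male libraries above 12 CPM.

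In gills, peptide genes were low, and the 4 that passed the test were all higher in males. Of the 40 members, 26 passed the expression filter and were tested. The 4 called are 15.4% of them, against 13.5% of all 17654 genes tested. Of all genes 7.45% were higher in males and 6.02% in females. The other 14 members could not be tested there. The median log2 fold change over the 26 was -0.21, against 0.0062 over all genes.

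Somatolactin had the smallest adjusted p among the members in gills. In gills smtla stood at 0.863, 3.02 and 9.18 CPM in 36 females and at 3.01, 5.90 and 18.2 CPM in 36 males. Of 36 males, 35 lay above the female median, and 3 of 36 females lay above the male median. The log2 fold change was -1.13 (SE 0.176, adjusted p = 2.88e-07). The other hormones counted in gills did not pass the test. For gh1, levels were 1.47, 6.72 and 36.3 CPM in females and 2.46, 9.10 and 92.7 CPM in males (log2 fold change -0.52, SE 0.256, adjusted p = 0.195). For cga they were 0.699, 4.53 and 15.1 CPM and 1.62, 4.94 and 15.4 CPM (log2 fold change -0.30, SE 0.203, adjusted p = 0.399).

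Neuropeptide Y had the largest difference among the members. In gills npy stood at 0.148, 1.39 and 6.97 CPM in females and at 0.293, 4.46 and 15.4 CPM in males, a log2 fold change of -1.58 (SE 0.284, adjusted p = 7.54e-06). Of 36 males, 31 lay above the female median. For adcyap1a, levels were 0.443, 1.41 and 3.39 CPM in females and 0.512, 1.91 and 6.99 CPM in males (log2 fold change -0.69, SE 0.170, adjusted p = 0.00179). For tac1, levels were 0.173, 0.757 and 3.36 CPM in females and 0, 0.895 and 12.4 CPM in males (log2 fold change -0.82, SE 0.283, adjusted p = 0.0395).

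Some markers of neurons, glia and liver were higher in male gills as well. The summed level of the neuron markers ran from 27.1 to 133 CPM in females with a median of 62.1, and from 36.0 to 285 CPM in males with a median of 68.2. Of the 7 markers, snap25a (log2 fold change -1.03) and elavl4 (-0.64) were higher in males, the other 5 did not pass the test, and none had a median of 0. Of 3 glia markers, s100b (-0.91) and plp1b (-0.88) were higher in males. Of 6 liver markers, apoa2 was higher in males (log2 fold change -1.16, adjusted p = 0.0453), and the other 5 had values from -1.02 to -0.49 that did not pass the test. The summed liver markers had a median of 48.6 CPM in females and 157 CPM in males, none of the 6 had a median of 0, and their part in the gill results was not tested. The 2 gills with the highest tac1, male replicates 6 and 35 at 12.4 and 12.1 CPM, ranked 4 and 2 of 72 in summed neuron markers. The gill with the highest npy, male replicate 27 at 15.4 CPM, ranked 52. The highest smtla, 18.2, 17.4, 16.5 and 14.4 CPM, was in the gills of male replicates 30, 16, 14 and 12. These ranked 3, 6, 1 and 34.

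With the mean of the neuron markers as a covariate, the log2 fold change of tac1 was -0.04 (adjusted p = 0.966). Under the same covariate it was -1.59 for npy (adjusted p = 8.66e-06), -0.93 for smtla (adjusted p = 3.59e-07) and -0.51 for adcyap1a (adjusted p = 0.0229). Under it 3 of 26 members were called, against 9.11% of all genes, and the median log2 fold change over the 26 was -0.05, against -0.0045 over all genes. The call of tac1 was also lost with the replicate block (adjusted p = 0.442) and with the tag series as a term (adjusted p = 0.0527).

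Outside the mRNA-binding genes, chga and cpe had the highest medians of the members in gills. The levels of chga, a granin also made in epithelial endocrine cells, were 10.5, 27.8 and 81.5 CPM in females and 15.8, 30.8 and 111 CPM in males (log2 fold change -0.16, SE 0.148, adjusted p = 0.561). Those of cpe were 16.6, 25.5 and 53.8 CPM and 14.1, 26.8 and 63.1 CPM (log2 fold change -0.11, SE 0.094, adjusted p = 0.521). For scg3, another granin with a median just under that of gh1, they were 3.35, 7.92 and 14.3 CPM and 3.40, 7.36 and 13.4 CPM (log2 fold change 0.11, SE 0.121, adjusted p = 0.652). For adcyap1b they were 0.629, 3.46 and 7.59 CPM and 1.42, 4.10 and 10.17 CPM (log2 fold change -0.17, SE 0.152, adjusted p = 0.546).

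Of the mRNA-binding genes, cpeb4b and cpeb2 had higher medians in gills than chga and cpe, and cpeb3 and cpeb1b lower ones. Medians were 258 and 273 CPM for cpeb4b (log2 fold change -0.07, SE 0.104, adjusted p = 0.757), 32.2 and 35.1 CPM for cpeb2 (-0.14, SE 0.110, adjusted p = 0.481) and 10.3 and 13.9 CPM for cpeb3 (-0.39, SE 0.149, adjusted p = 0.0667), females before males.

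The related gene vip was again higher in females, at 2.73, 7.11 and 15.7 CPM against 1.41, 5.20 and 17.9 CPM in males (log2 fold change 0.56, SE 0.166, adjusted p = 0.0143). Of 27 receptor genes tested in gills, 2 were higher in females and 6 in males, against 6.02% and 7.45% of all genes. Their median log2 fold change was -0.29, against 0.0062 over all genes. The galanin receptor galr2b had medians of 5.73 CPM among females and 0.918 CPM among males (log2 fold change 2.57, adjusted p = 1.17e-11). The receptor for thyrotropin-releasing hormone trhr2, which the RefSeq gene table places on the Y, stood at 0.944 and 3.48 CPM (-2.03, adjusted p = 1.31e-10). In brain its medians were 3.61 CPM in females and 3.07 CPM in males (log2 fold change 0.20, adjusted p = 0.622). Its counts are thus not confined to males. The neuropeptide Y receptor npy2r was higher in males, at 12.0 against 4.26 CPM by median (log2 fold change -0.91, adjusted p = 0.0346), as was npy. With the neuron markers as a covariate 2 receptors were higher in females and 3 in males, against 9.11% of all genes called either way. Under this covariate npy2r was not called (log2 fold change -0.71, adjusted p = 0.156). Of 18 further processing and granule genes, 3 were higher in females and 3 in males, against the same 6.02% and 7.45% of all genes.

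Set against brain, the gill levels of most pituitary hormones were under 1 in 100 of the brain level. The gill median was 0.303% of the brain median for oxt, 0.361% for prl, 0.362% for pmch, 0.377% for gh1, 0.393% for lhb and 0.404% for cga. By sex these shares differed more, at 0.276% in females and 0.521% in males for gh1, and at 0.274% and 0.560% for lhb. Among all 3974 genes with a brain median above 50 CPM, the lowest such share was 0.294%, the share below which 1 in 100 genes lay was 0.486%, and the median was 47.0%. The neuronal gene snap25a stood at 0.413% and the glial gene s100b at 0.429%. The related genes avp and fsh-beta lay below both, with 0.340% and 0.357%. A little higher lay smtla with 0.638% and tshba with 0.977%, and above these lay npy with 2.13%, cpe with 4.66%, trh with 5.11%, tac3a with 14.2%, sst5 with 34.7%, chga with 38.0% and nmu, the neuromedin U gene, with 41.5%.

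Gill levels of the 7 hormone genes and oxt were set against the brain levels of the same fish, apart in 15 fish with a brain low in pou1f1 and in 54 others. Of these 16 relations 1 had an adjusted permutation p under 0.05, that of smtla in the 15 fish (r = 0.79, permutation p = 0.00036, adjusted p = 0.00576; rho = 0.78, permutation p = 0.00107, adjusted p = 0.0171; r = 0.76 and rho = 0.70 without the 2 brains farthest from the median). With 2 samples left out in this way, 0 of the 16 relations passed by rank after adjustment. In these fish the brain levels of smtla do not overlap between the sexes, so it was also computed within each sex, a choice made after the values were seen. There r was 0.29 in 9 females (exact permutation p = 0.457) and 0.69 in 6 males (exact permutation p = 0.138), and rho was 0.20 (exact permutation p = 0.613) and 0.60 (exact permutation p = 0.242); after adjustment over the 2 sexes the p-values of r were 0.457 and 0.275. In the 54 other fish the relation of smtla had r = 0.16 (permutation p = 0.259) and rho = 0.19 (permutation p = 0.168). Where the low counts of these genes in gills come from was not tested.

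**Figure D5:**
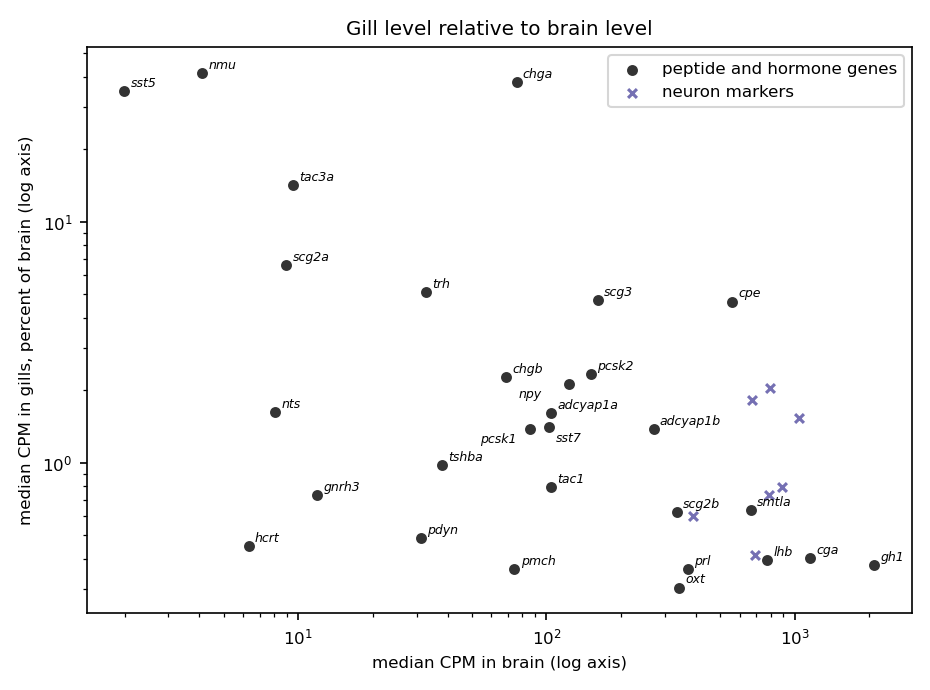
Median gill level as a percent of the median brain level (vertical log axis) against the brain median in CPM (horizontal log axis) for peptide and hormone genes (circles) and neuron markers (crosses); genes with a gill median of 0 are left out. The hormones gh1, cga, lhb and prl lie with oxt and pmch at 0.303% to 0.404%, and chga, nmu and sst5 lie at 34.7% to 41.5%.

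In liver, 13 of the 40 members passed the filter, and 2 passed the test, 15.4% of those tested against 39.2% of all 13447 genes (16.1% higher in females and 23.1% in males). The median log2 fold change over the 13 was 0.51, against -0.12 over all genes. With the pancreas markers as a covariate 3 were called (chgb, cpeb1b and trh), against 38.5% of all genes. The granin chgb was higher in females, with 0.196, 5.23 and 26.6 CPM in 35 females and 0.382, 2.67 and 20.4 CPM in 32 males (log2 fold change 0.98, SE 0.295, adjusted p = 0.00585). Of 35 females, 27 lay above the male median, in ranges that overlap. The gene trh was lower in females, with 0, 0.278 and 1.81 CPM against 0, 0.922 and 9.22 CPM in males (log2 fold change -0.98, SE 0.358, adjusted p = 0.0232). The median of females lies under the detection limit.

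The sexes of liver differ in scale as well. With library totals alone the median log2 fold change over all genes moved by -0.39, and the share of called genes that were higher in females went from 41.0% to 13.0%. On that scale chgb had a log2 fold change of 0.61 (adjusted p = 0.0753), and the members called were trh and cpeb2. With the replicate block the adjusted p of trh was 0.258.

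The other members of the highest mean level in liver did not pass the test. The convertase pcsk1 ran from 0 through a median of 1.42 to 216.5 CPM in females and from 0 through 0.340 to 139 CPM in males (log2 fold change 1.06, SE 0.692, adjusted p = 0.223). It exceeded 10 CPM in 7 of 67 livers, 5 of females and 2 of males. The highest, female replicate 21, ranked 13 of 67 in summed pancreas markers and the next, male replicate 21, ranked 50. The levels of gh1 were 0, 4.29 and 60.6 CPM in females and 0, 1.62 and 23.6 CPM in males (log2 fold change 1.09, SE 0.511, adjusted p = 0.0839).

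The same direction was seen for cga, with medians of 2.01 and 0.861 CPM (log2 fold change 0.86, SE 0.528, adjusted p = 0.192), and for lhb, with 1.67 and 0.847 CPM (0.81, SE 0.492, adjusted p = 0.188). For smtla the medians were 1.04 CPM in females and 1.76 CPM in males (0.19, SE 0.355, adjusted p = 0.703), and for cpe they were 1.098 and 1.11 CPM (0.33, SE 0.318, adjusted p = 0.433). Liver levels of the same 8 genes, set against brain in 14 fish with a low brain and 50 others, gave r between -0.15 and 0.35 and rho between -0.17 and 0.39. Of these 16 relations 1 had an unadjusted permutation p under 0.05 by r and 0 by rho, and 0 had an adjusted one by either.

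Among the mRNA-binding genes in liver, cpeb4b had medians of 64.1 CPM in females and 80.0 CPM in males (log2 fold change 0.02, SE 0.193, adjusted p = 0.955). For cpeb3 they were 5.26 and 5.39 CPM (0.51, SE 0.270, adjusted p = 0.130), and for cpeb2 1.30 and 2.61 CPM (-0.39, SE 0.242, adjusted p = 0.195).

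Of 15 receptor genes tested in liver, 2 were higher in females and 5 in males, against 16.1% and 23.1% of all genes. Their median log2 fold change was -0.46, against -0.12 over all genes. Both growth hormone receptors were lower in females, ghra with medians of 33.5 against 127 CPM (log2 fold change -0.99, adjusted p = 4.05e-06) and ghrb with 37.8 against 77.3 CPM (-0.58, adjusted p = 0.00526). The neurotensin receptor ntsr1 was lower in females too, at 7.01 against 18.5 CPM (-0.94, adjusted p = 1.14e-06). Of 14 processing and granule genes tested, 4 were higher in females and 1 in males, against the same 16.1% and 23.1% of all genes. They were led by the convertase furina with 535 against 194 CPM (1.71, adjusted p = 4.69e-12). Of the 7 pancreas markers tested, pdx1 was higher in males and none was higher in females, and their summed level ran from 3.25 to 4864 CPM over livers. Of the 6 liver markers, 5 were higher in males and itih2 was higher in females (log2 fold change 1.24). No glia or neuron marker passed the test in liver. The median log2 fold change was 0.73 over the 3 glia markers tested and 0.36 over the 6 neuron markers, of which syt1a and elavl4 were negative. The part of these markers in the liver results was not tested.

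Within fish, nearly all members tested were higher in brain than in gills or liver. In 1 fit over the tissues of 77 fish, with the fish as a block, 85.6% of all 20021 genes differed between brain and gills. Of 38 members tested, 37 were higher in brain, against 42.5% of all genes, and 0 were higher in gills, against 43.1%. The log2 difference of brain over gills was 8.00 for oxt (SE 0.284), 7.75 for pmch (SE 0.220) and 7.51 for gh1 (SE 0.455), and 1.31 for chga (SE 0.126). Only cpeb1b had an adjusted p above 0.05 (0.692). Between brain and liver 86.2% of all genes differed. Of 38 members, 37 were higher in brain, against 48.9% of all genes, and cpeb1b was higher in liver, as were 37.3% of all genes (log2 difference -0.42, adjusted p = 0.0458). The differences reached 7.25 for scg2b (SE 0.203) and 7.08 for cga (SE 0.431). The smallest among the peptide genes were 1.92 for sst5 and 2.28 for chgb. A gene entered this fit if its level in any tissue passed the expression filter. In the fits of each tissue alone, 38 members passed it in brain, 26 in gills and 13 in liver. Members could thus enter through their brain level, so the counts of members higher in brain are partly set by the filter.

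The sex difference itself was then compared between tissues in the same fit. Between gills and brain 1 member of 38 passed, against 0.38% of all genes (0.16% more female and 0.22% more male in gills). It was npy, whose log2 sex difference was 1.90 lower in gills than in brain (interaction -1.90, SE 0.407, adjusted p = 0.00419, and -1.74, adjusted p = 0.00871, without the 4 brains low in oxt). Its brain median was 123 CPM in each sex, and its gill median was 1.129% of brain in females and 3.62% in males. For smtla the interaction was -0.06 (SE 0.532, adjusted p = 1.0), for adcyap1a -0.49 (SE 0.231, adjusted p = 0.479) and for tac1 -0.46 (SE 0.333, adjusted p = 0.712), so a difference between the tissues was not shown for them.

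Between liver and brain 6 members passed, 15.8% of those tested against 27.2% of all genes, and in each the sex difference was more female in liver, as in 9.72% of all genes, while 17.5% were more male. They were pcsk1 (interaction 2.44, SE 0.528, adjusted p = 0.000112), chgb (1.25, SE 0.327, adjusted p = 0.00163), scg2b (1.22, adjusted p = 0.00624), pmch (1.57, adjusted p = 0.00839), adcyap1b (0.92, adjusted p = 0.0254) and sst1.1, a somatostatin gene (3.52, SE 0.482, adjusted p = 1.16e-09). Of these 6 only chgb and pcsk1 passed the expression filter in liver. The other 4 (scg2b, pmch, adcyap1b and sst1.1) entered the fit through their level in brain and were not tested between the sexes in liver alone, so their count is no support for a direction. The call of pcsk1 was lost without the fish block (1.17, adjusted p = 0.0994), and those of scg2b and adcyap1b with all libraries (adjusted p = 0.0804 and 0.241). Without the 4 brains low in oxt the interaction of pmch was 1.84 (adjusted p = 0.000818). The livers of highest sst1.1, female replicates 32 and 24 with 25 counts each, ranked 4 and 5 of 67 in summed pancreas markers. The next, female replicates 30 and 7, ranked 23 and 54. The part of pancreas in this interaction was not tested. In liver sst1.1 had a count in all but 4 of 35 females and was at 0 in 20 of 32 males, with a female median of 0.325 CPM, close to the detection limit. The liver medians of pmch, 0.205 CPM in females and 0.0778 CPM in males, lie under it.

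Between liver and gills 10 members passed, 26.3% of those tested against 27.2% of all genes. In all 10 the sex difference was more female in liver, as in 9.07% of all genes, while 18.1% were more male. Of the 10 only chgb, cpeb3 and pcsk1 passed the expression filter in liver, and the other 7 entered the fit through brain or gills. Of those 7, gnrh3 and sst1.1 passed it in neither liver nor gills. For gnrh3 (interaction 2.09, SE 0.652, adjusted p = 0.00972) the gill medians, 0.0658 CPM in females and 0.108 CPM in males, lie under the detection limit and the liver medians are 0. The largest beside sst1.1 were npy (2.60, SE 0.528, adjusted p = 4.16e-05) and pcsk1 (2.36, SE 0.557, adjusted p = 0.000454). Without the fish block pcsk1 and chgb did not pass (adjusted p = 0.184 and 0.0728), and with all libraries adcyap1b and scg2b did not (adjusted p = 0.178 and 0.0665). The median interaction over the 38 members of the fit was 0.79, against -0.15 over all genes. Only 13 members passed the filter in liver alone, so this median is no support for a direction.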

How the data were processed

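The authors deposited raw counts per gene, 1 table per tissue. Per the submitters' processing notes fastp, STAR and HTSeq were used; their settings, the genome build and the annotation are not given in the sources used here. Reads in no gene (medians of 12.9%, 10.8% and 7.45% in brain, gills and liver) or in several genes (4.35%, 3.76% and 4.03%) were left out. Genes with near-identical copies are uncertain.

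CPM is the count per 1000000 counted reads. The sexes were compared in edgeR 4.0.16 (R 4.3.3) by its quasi-likelihood test (TMM scaling, filterByExpr by sex, robust), two-sided, with Benjamini-Hochberg adjustment over all genes of the tissue at 0.05. SE is the log2 fold change over the root of F. Tissues and interactions come from 1 such fit with fish as block, whose dispersion trend used every 20th gene. Correlations of a gene between brain and gills or liver were computed within the brains low in pou1f1 and the others, because they fall apart. Those with liver vtg3 and igf1 took the other brains, and also all brains, of each sex. Pairs of members took all 77 brains. Ratios and correlations use log2 CPM with a prior count of 2 and 100000 permutations.

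On simulated counts 100% of 2-fold changes were recovered in brain (18321 genes) and gills (17578 genes), and 73.8% in liver (13296 genes); of 1.5-fold changes 81%, 65.6% and 15.5% were recovered. For the interaction of gills and brain 98.6% of 2-fold changes were recovered over 997 genes. The changed genes were picked at random, with a spread typical of genes of their level or, for the interaction, 1 fixed spread. These shares do not carry over to the pituitary hormones in brain, whose SE was 0.431 to 0.490, so their results do not exclude 2-fold sex differences.

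The 40 members are all those of the name pattern. Full values are given for members called in any tissue or interaction, for the pituitary hormones and for the 10 members of highest mean in each tissue. The members, the gene lists and the tests were chosen with earlier results of these data known. Names and chromosomes come from the RefSeq gene table of assembly fGasAcu3.hap1.1, whose relation to the build used for counting is not known; 38 members matched. Libraries under 1000000 counts (1 brain and 10 livers) were left out. No molecular identifiers are given, so the detection limit of 3 counts covers counting error only. The p-values of comparisons within 1 tissue measure the spread between fish. Those of tissues and interactions, with fish as block, measure the spread between tissues that the fish term leaves. Alternatives covered depth, scaling, filter, test (DESeq2 1.42.0), replicate block, the series of the fish tag numbers in the labels, and leaving out 7 doubtful libraries (6 of them of sufficient depth), whose counts an earlier analysis of these data found to go against their sex label or which come from such a fish. After the results were seen, 1 gene was left out of the list of pituitary factors and of the covariate made from it; it is not reported here, nor are relations of hormones to that list.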

Additional observations from a re-analysis of the deposited data

Results flagged for a closer look

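The sex difference of these genes differed between tissues, by the interaction term of the fit with fish as block, in 17 tests. For gills and brain 2.63% of the members tested passed, against 0.38% of all genes. For liver and brain the shares were 15.8% against 27.2%, and for liver and gills 26.3% against 27.2%. Between gills and brain the interaction was -1.90 for npy on the log2 scale. Between liver and brain it was 0.92 for adcyap1b, 1.25 for chgb, 2.44 for pcsk1, 1.57 for pmch, 1.22 for scg2b and 3.52 for sst1.1. Between liver and gills it was 0.93 for adcyap1a, 1.05 for adcyap1b, 0.90 for chgb, 0.82 for cpeb3, 2.09 for gnrh3, 2.60 for npy, 2.36 for pcsk1, 1.30 for scg2b, 4.16 for sst1.1 and 1.28 for tac1. Of the members named for liver, only chgb, cpeb3 and pcsk1 passed the expression filter in liver, and gnrh3 and sst1.1 passed it in neither liver nor gills; the rest entered the fit through brain or gills. A positive value means a more female sex difference in the tissue named first. Liver medians of sst1.1, gnrh3, pmch, npy, tac1 and scg2b lie under the detection limit in at least 1 sex, so the size of these values depends on few counts.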

How the results depend on the processing

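The replicate number of the labels was also used as a block. It left 1 member called in brain (nts) in place of 3, and the signs of gh1 (-0.0055) and prl (-0.052) in brain turned. Same-numbered females and males did not deviate together (median r of -0.027 for brain, -0.072 for gills and 0.039 for liver; 2 of 38, 1 of 36 and 0 of 29 numbers matched best with themselves), so the numbers do not pair fish. Alternatives without the low brains, the male brain of lowest ratio or the low-oxt brains, and those with neuron or pancreas markers, were chosen after seeing the data. In liver, 2 members were called; the count was 1 with libraries of at least 0.5 times the median depth, 4 with DESeq2, 5 without a filter and 1 with at least 10 counts in 70% of libraries. The cause of these changes in the count was not tested. The counts of members called for brain and liver in this section stand without the share of all genes called under each alternative. They are therefore no result about the members. The sign of cga in brain turned with the pituitary factors as covariate (0.21) and without the 16 low brains (0.010), and with that covariate those of tshba (0.34) and fsh-beta (0.16) turned. The difference of the fsh-beta ratio, 0.0090, turned to -0.014 without doubtful libraries, to -0.10 without the 16 low brains and to -0.072 without the male brain of lowest ratio. The relation of gh1 to igf1 that passed by rank did not pass without the 2 farthest samples (0 of 4), nor did that of smtla in brain and gills (0 of 16 by rank, against 1). In the interaction of gills and brain, 136 genes in place of 76 were called without the fish block. Interactions of pcsk1 in liver did not pass without that block (adjusted p of 0.0994 against brain and 0.184 against gills), nor did that of chgb against gills (0.0728), and those of scg2b and adcyap1b not with all libraries. Calls of nts in brain and of smtla, npy and adcyap1a in gills were made under every alternative run. Liver depth (down to 4351992 counts) limits members near 3 counts.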
